A study of Mus musculus with 16 samples.

Results

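The constitutive chaperones and folding enzymes hold, fold and refold other proteins, some in every cell and others in a few tissues such as testis or muscle, and their transcripts were measured here in the kidneys of 5 littermate mice. Members are the genes whose single platform symbol starts with Hsp, Dnaj, Cct and a digit, Pdia, or Bag and a digit, together with Calr, Canx and Tcp1. The stress-inducible Hspa1a, Dnajb1, Hspb1 and Bag3 and the matrix gene Hspg2 were left out by the same rule. Of 74 such genes on the array, 62 had a probe measured on at least 3 arrays of each of the 4 mice, among 8005 named genes tested in all. The other 12 genes were not tested, since no probe of theirs met that minimum. They are Hsph1, Cct3, Cct4, Cct8, Cct8l1, Hspb11, Dnajb12, Dnajc5b, Dnajc6, Dnajc16, Dnajc17 and Bag5, and their best probe had values on 0 arrays (Dnajb12) to 14 arrays (Hspb11 and Hsph1). In all, 81 probes of the 62 members were tested, and 14 members had several probes.

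The right kidneys of 4 wild-type males, W1, W2, W3 and W4, were each set against the right kidney of W5, a wild-type male of the same litter, to measure how far normal mice differ. All 5 mice had a mixed background of C57BL/6 and 129Sv, received no treatment that the labels name, and were killed at 88 ± 2 days of age in the morning. A 2-colour array carries a pair of RNA samples labelled with different dyes, and 4 arrays were hybridised per mouse, 16 in all. Those 4 arrays repeat the hybridisation of 1 kidney's RNA, so every error below measures the arrays, not a population of mice, and 1 kidney stands for each mouse. Between 80.2% and 91.1% of the 20205 probes had a value on an array.

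Each value is a log2 ratio to W5, fitted over n = 4 arrays per mouse with its standard error (SE), and W5 lies at 0. The files do not settle which channel is the numerator, so a value says how far a kidney lay from W5 and on which side, but not which kidney held more of the transcript. Side A denotes values above 0 as coded, side B values below 0. The range of a gene is the span from the lowest to the highest of the 5 kidneys, and a range of 1 on the log2 scale is a 2-fold difference. Ratios hold no level, so it could not be checked here that a member is expressed in the kidney, or that it is expressed without stress. In whole kidney RNA, fewer cells of a type and less RNA per cell cannot be told apart.

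Chaperones work as machines built from a motor and its helpers. Hsp70 proteins bind unfolded stretches and release them on using ATP. J proteins bring them clients and start that cycle, nucleotide exchange factors such as the Hsp110 and Bag proteins reset it, and Hsp90 takes over clients that are close to folded. Chaperonins enclose a chain in a barrel, and small heat shock proteins hold unfolded proteins without using ATP. In the endoplasmic reticulum (ER), Hspa5, Hsp90b1, the sugar-binding Calr and Canx and the Pdia enzymes, which make and exchange disulphide bonds, fold the proteins a cell secretes or places in its membrane. Tubule cells of the kidney make large amounts of membrane transporters and endocytic receptors along this route. Heat shock factors raise chaperone genes through heat shock elements, and the unfolded protein response raises ER chaperones through ER stress elements.

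The promoters of the members carry these elements unevenly, and the stretches that hold them are shown because every member found with the ER stress element encodes an ER protein. Windows from 250 bases before to 50 bases after each gene's start were taken from RefSeq on build GRCm38.p6, and 53 of the 62 members had one. The ER stress element, searched on both strands as CCAAT and CCACG with any 9 bases between them, stood in 6 of these 53 members (11.3%), against 37 of 27025 genes with a window in all (0.137%) and 39 of 32851 windows (0.119%). They are Hspa5, Hsp90b1, Calr, Canx, Pdia6 and Dnajc3. Capitals mark the element, each line runs 5′ to 3′ on the strand of the gene, and Hsp90b1 holds the element in both orientations.
Hspa5, chr2:34772005-34772063: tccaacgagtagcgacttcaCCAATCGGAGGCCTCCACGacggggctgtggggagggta
Hsp90b1, first, chr10:86705618-86705676: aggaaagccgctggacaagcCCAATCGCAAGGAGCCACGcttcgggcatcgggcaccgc
Hsp90b1, second, chr10:86705513-86705571: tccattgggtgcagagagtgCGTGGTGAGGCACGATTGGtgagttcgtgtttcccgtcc
Calr, chr8:84847055-84847113: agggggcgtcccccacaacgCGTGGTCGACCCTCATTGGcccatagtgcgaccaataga
Canx, chr11:50325780-50325838: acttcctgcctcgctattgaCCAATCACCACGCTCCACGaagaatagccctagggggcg
Pdia6, chr12:17266471-17266529: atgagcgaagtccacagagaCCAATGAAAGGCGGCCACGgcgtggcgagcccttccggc
Dnajc3, chr14:118937807-118937865: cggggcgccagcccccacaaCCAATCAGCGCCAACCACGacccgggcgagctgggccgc

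The heat shock element, searched on both strands as GAA, TTC and GAA in this order with any 2 bases between neighbours, stood in 2 of the 53 members (3.77%), against 179 of 27025 genes (0.662%) and 198 of 32851 windows (0.603%). They are Dnajb6, the member with the lowest adjusted p among the kidneys, and Hspe1, the lid of the mitochondrial chaperonin. None of the 4 stress-inducible genes held these exact letters in its window, so a missing match says nothing about a factor. In Hspe1 the capitals cover a pair of overlapping matches, 1 on each strand.
Dnajb6, chr5:29735832-29735884: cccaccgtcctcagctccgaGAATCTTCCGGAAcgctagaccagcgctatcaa
Hspe1, chr1:55088039-55088096: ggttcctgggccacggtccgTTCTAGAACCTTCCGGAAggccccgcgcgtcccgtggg

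The first comparison asked whether any of the 5 kidneys differed in a member. No member passed: limma's moderated F test over the 4 mouse coefficients called 0 of 62 members at a Benjamini-Hochberg adjusted p under 0.05, against 336 of 8005 named genes (4.2%). By probe the count was 0 of 81, against 4% of all 15715 probes. At an unadjusted p under 0.05 the same test held 8 members (12.9%), against 1460 named genes (18.2%). These 8 were Dnajb6, Bag2, Hspa4l, Hspb9, Hspb3, Hspa8, Hsp90aa1 and Dnaja4. The lowest adjusted p was 0.0573, for Dnajb6, and it lay close enough to the threshold that other settings passed it. Array quality weights called 2 members, Dnajb6 and Hspa4l, and Dnajb6 was also called when arrays were scaled to a common spread, when values on all 4 arrays of each mouse were required, and when 1 probe per named gene was tested.

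The members' values lay close to W5. Their median range over the 5 kidneys was 0.22, a 1.17-fold difference, against a median of 0.23 over the other 7943 named genes. Tcp1, a subunit of the cytosolic chaperonin, had the narrowest range, 0.10, and Bag2, a co-chaperone of Hsp70, the widest, 0.54 or 1.46-fold. That width rests largely on array W4.3, without which the range of Bag2 was 0.26. No member had a range over 1.5-fold on the probe used, against 274 of the 7943 other named genes. A second probe of Hspa14, an Hsp70 relative at the ribosome, did reach a range of 0.63, as described below.

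The intervals put a bound on what these arrays could have missed. On the probe used, the 95% intervals of all 4 kidneys lay within 1.5-fold of W5 for 58 of 62 members (93.5%), against 88.6% of the other named genes. Those outside were Bag2, Hspa12b, Dnajb13 and Dnajc28, and for all 62 the intervals lay within 2-fold, against 99.1% of the other genes. Other probes could reach farther: the second probe of Dnajc2 had an interval in W4 up to 0.91, or 1.88-fold. The residual SD between repeat arrays, after mouse and dye were fitted, had a median of 0.17 in members and 0.18 in the other genes.

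**Figure D1:**
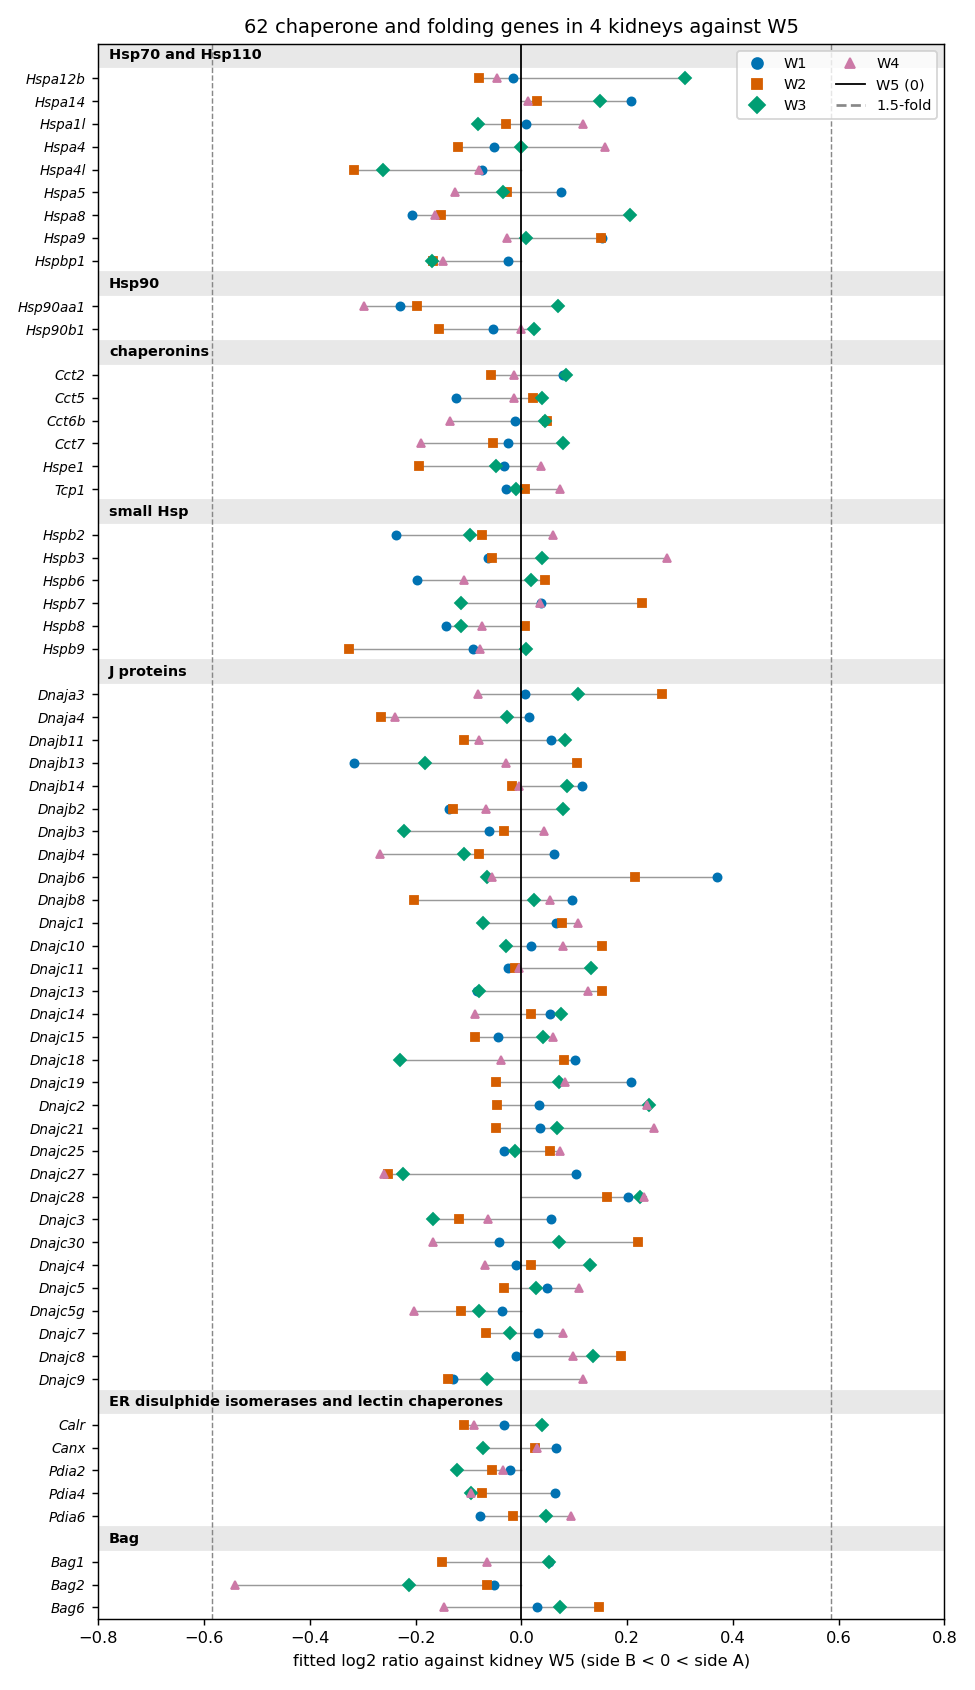
Log2 ratio to W5 (x axis) of the 62 members (y axis, grouped by family), 1 point for each of W1, W2, W3 and W4, with W5 as the line at 0. No member reaches the dashed lines at 1.5-fold, and the points farthest out are Bag2 in W4 at -0.54 and Dnajb6 in W1 at 0.37.

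The median member lay near W5 in each mouse. The medians over members were -0.012, -0.047, 0.013 and -0.029 for W1 to W4, against -0.0085, 0.010, 0.0067 and 0.0034 over the other named genes. Of the 62 members, 29, 23, 33 and 25 lay on side A in the kidneys W1 to W4, taken in that order. As shares these are 46.8%, 37.1%, 53.2% and 40.3%, against 46.6%, 53.1%, 52.5% and 51.1% of the other named genes. The lower shares in W2 and W4 were not tested. Measured from the median of the other 4, the outermost kidney was W1 for 14 members, W2 for 16, W3 for 13 and W4 for 17, and it was W5 for Hspbp1 and Dnajc28. All 4 mice lay on the same side of W5 in 7 members (11.3%), against 21.9% of the other genes.

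Among the Hsp70 motors and their exchange factors, 9 of 10 genes were tested, and their ranges had a median of 0.21. Hspa8, the main Hsp70 of unstressed cytosol, which also strips clathrin from vesicles, had the widest range, 0.41 or 1.33-fold. On its arrays Hspa8 read -0.12, -0.075, -0.39 and -0.25 for W1, then 0.14, -0.34, -0.28 and -0.13 for W2, 0.11, 0.25, -0.14 and 0.61 for W3, and -0.25, -0.043, -0.39 and 0.025 for W4. W3 lay on side A on 3 of its 4 arrays, W1 lay on side B on all 4, and the arrays of W2 and W4 straddled 0. The fitted values for W1 to W4 were -0.21, -0.15, 0.21 and -0.16, each ± 0.10 (SE), and the adjusted p in limma's 5-kidney test was 0.239. The probe cannot be taken as free of signal from close relatives of Hspa8, since Hsp70 genes share much sequence.

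The other Hsp70 genes lay closer together or had larger errors. Hspa4l, an Hsp110-type exchange factor, was on side B in each mouse, at -0.075, -0.32, -0.26 and -0.081 in W1 to W4 (limma adjusted p = 0.178). Its second probe put W2 on side A at 0.094 and W4 on side B at -0.29, so the probes did not order the kidneys alike. Hspa4, the widespread Hsp110-type gene, ran between -0.12 in W2 and 0.16 in W4. Hspa9, the Hsp70 of the mitochondrial matrix, lay at 0.15 in W1 and 0.15 in W2, with W3 and W4 within 0.028 of W5. Another of its 3 probes put W4 farthest out, at 0.24 (5-kidney limma adjusted p = 0.237). Hspa5, the Hsp70 of the ER, had a range of 0.20, with W1 at 0.075 and W4 at -0.13 ± 0.11.

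Hspa14 showed how much a single probe can matter. The probe with values on most arrays had a range of 0.21, with W1 at 0.21 and W3 at 0.15. The other probe had W1 at -0.27 and W2 at 0.36, a range of 0.63 (limma adjusted p = 0.169). Hspa12b, a distant Hsp70 relative known from endothelium, lay at 0.31 ± 0.20 in W3, with a 95% interval from -0.11 to 0.73. That value rests largely on array W3.1, which read 1.60, whereas the other arrays of W3 read -0.15 to -0.082. Hspbp1, an exchange factor that opens Hsp70, was on side B in each mouse, at -0.026 in W1 and between -0.17 and -0.15 in the other mice. Hspa1l, the testis form, had a range of 0.20.

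Of the Hsp90 pair, the cytosolic gene had the wider range. Hsp90aa1, the cytosolic form that stress also raises, had a range of 0.37. Hsp90aa1 read -0.26, 0.095, -0.43 and -0.33 for W1, then -0.11, -0.56, 0.0097 and -0.12 for W2, 0.13, 0.080, -0.17 and 0.24 for W3, and -0.38, -0.44, -0.58 and 0.22 for W4. W1, W2 and W4 each lay mostly on side B with 1 array on side A, while W3 had 3 arrays on side A, and the arrays of all mice overlapped. Fitted values for W1 to W4 were -0.23, -0.20, 0.069 and -0.30, each ± 0.12 (SE; limma adjusted p = 0.244). Hsp90b1, the ER form whose promoter holds a pair of ER stress elements, had a range of 0.18, with W2 at -0.16 and the rest within 0.053 of W5. The difference between the genes' ranges was not tested.

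The chaperonins were among the narrowest members, with a median range of 0.17 over the 6 tested of 10. Tcp1, Cct2, Cct5 and Cct7 are subunits of the ring that folds actin and tubulin, and Cct6b is a testis form of another subunit. Cct7 had the widest range, 0.27. By array, Cct7 read 0.050, 0.085, -0.071 and -0.17 for W1, then -0.00025, -0.21, 0.087 and -0.094 for W2, 0.16, -0.0084, 0.11 and 0.051 for W3, and -0.12, -0.29, -0.24 and -0.11 for W4. All 4 arrays of W4 lay on side B, and in the other mice the arrays lay on both sides of W5. W4 was fitted at -0.19 ± 0.069 (5-kidney limma adjusted p = 0.351). Tcp1, Cct2, Cct5 and Cct6b had ranges of 0.10, 0.14, 0.16 and 0.18, and none of the kidneys was beyond -0.13, the value of Cct6b in W4. Tcp1 was read by 4 probes, whose ranges ran between 0.098 and 0.27. Hspe1, the lid of the mitochondrial Hsp60 barrel, lay at -0.19 ± 0.14 in W2 with a range of 0.23.

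The J proteins form the largest family, with 31 of 36 tested and a median range of 0.23. The A and B types, which carry clients to Hsp70, had a median range of 0.29 over 10 genes, and the C types, a mixed class that places Hsp70 at ribosomes, membranes and organelles, one of 0.20 over 21. The difference between the classes was not tested. Dnajb6, which keeps aggregation-prone proteins soluble, had the widest range, 0.43 or 1.35-fold. The arrays of Dnajb6 read 0.12, 0.49, 0.23 and 0.64 for W1, then 0.28, 0.30, -0.30 and 0.58 for W2, -0.071, 0.032, -0.26 and 0.035 for W3, and -0.20, 0.16, -0.23 and 0.044 for W4. All 4 arrays of W1 and 3 of the 4 arrays of W2 lay on side A, and W3 and W4 lay around W5. The fitted values for W1 to W4 were 0.37, 0.21, -0.065 and -0.055, each ± 0.086 (SE).

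Whether Dnajb6 was called depended on the settings, and it came near the threshold on 1 of its 4 probes. In limma its adjusted p was 0.0573 among the 5 kidneys and 0.0590 for W1 against W5. Array W2.3, at -0.30, lay on the other side from the rest of W2, and without it the adjusted p among the 5 kidneys was 0.00934. Over 30 other settings the adjusted p ran between 0.00934 and 0.489, and 6 of the 30 passed the threshold. The highest value came without W1, where the range fell to 0.28. Dnajb6 also had a dye term of -0.17 (limma adjusted p = 0.0189), and without a dye term in the fit the adjusted p was 0.305.

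The other 3 probes of Dnajb6 did not show that pattern. Probe 9718 had W1 at 0.20 and W3 at -0.24, with W2 on side B. Probe 12590 had W2 at 0.32 and W1 at 0.0029. Probe 10011 had all kidneys within 0.076 of W5. The adjusted p of these probes in limma's 5-kidney test were 0.286, 0.309 and 0.922, and which transcript each probe reads is not given in the sources used here.

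**Figure D2:**
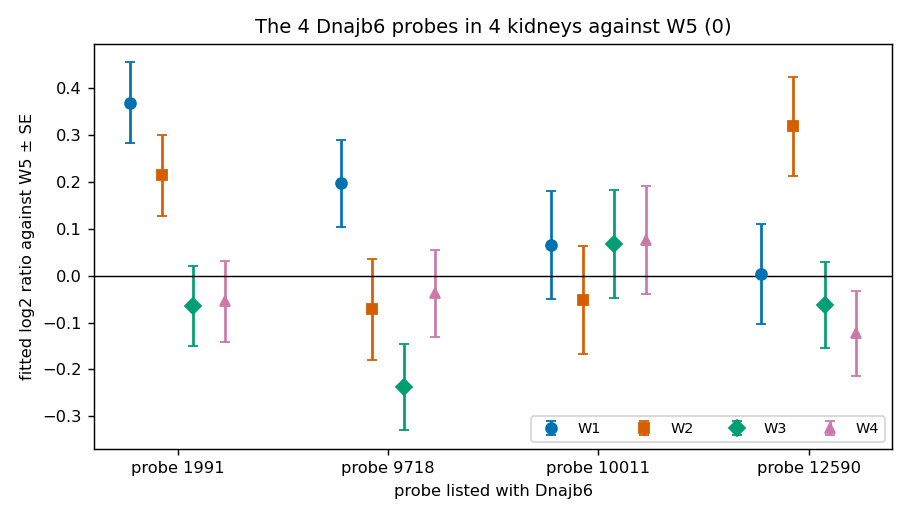
Log2 ratio to W5 (y axis) of the 4 probes of Dnajb6 in W1, W2, W3 and W4, with each point a mouse's fitted value and its bar the SE. Probe 1991 has W1 at 0.37 and W2 at 0.21, whereas probe 12590 has W1 near 0 and W2 at 0.32.

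Over the probes of the remaining J proteins, the lowest adjusted p in limma's 5-kidney test was 0.225, for the second probe of Dnajb2. Dnaja3, of the mitochondrial matrix, and Dnaja4, a cytosolic form that stress also raises, lay apart in W2 on opposite sides, at 0.27 ± 0.10 and -0.26 ± 0.11. Dnaja4 was also at -0.24 in W4. Dnajb4, a cytosolic form, lay at -0.27 ± 0.13 in W4. Dnajb2, best known from neurons, had probes with opposite signs in every mouse, for example -0.14 and 0.15 in W1. Dnajb3 and Dnajb8, testis forms, had ranges of 0.26 and 0.30, and Dnajb14, of the ER membrane, one of 0.13. Dnajb13, of sperm and cilia, had the largest error of the A and B types, with W1 at -0.32 ± 0.16. Its array W1.1 read -0.93, and its other arrays of W1 read -0.19 to -0.050.

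Among the C types, Dnajc2 and Dnajc21 lay on side A in W4. Dnajc2, which works with Hspa14 on chains leaving the ribosome, lay at 0.24 in W3 and 0.24 ± 0.12 in W4, and its second probe put W4 at 0.49. Dnajc21, of ribosome assembly, lay at 0.25 ± 0.11 in W4. Neither passed the 5-kidney test in limma (adjusted p = 0.448 and 0.550). Dnajc27, which joins a J domain to a small GTPase, lay on side B at -0.25, -0.22 and -0.26 in W2, W3 and W4 and on side A at 0.10 in W1. Dnajc18 lay at -0.23 in W3, where array W3.4 read -1.08 and the other arrays read -0.078 to 0.23.

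The remaining C types serve many compartments. Dnajc25 had a range of 0.11, Dnajc5, the cysteine string protein of vesicle release, one of 0.14 and Dnajc7, which links Hsp70 to Hsp90, one of 0.15. Dnajc14, Dnajc4 and the testis form Dnajc5g had ranges of 0.16, 0.20 and 0.20. Dnajc13, of endosomes, lay at 0.15 in W2 and 0.13 in W4 but at -0.084 and -0.080 in W1 and W3. Dnajc8, a splicing factor, and Dnajc9, a histone chaperone, ran up to 0.19 in W2 and down to -0.14 in W2. Of the mitochondrial J proteins, Dnajc19 of the import motor lay at 0.21 in W1, its relative Dnajc15 had a range of 0.15, Dnajc11 one of 0.16, and Dnajc30 had the widest, 0.39 with an SE of 0.13 in each mouse.

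The small heat shock proteins had the widest median range of the families, 0.32 over the 6 tested of 7, and the difference from other families was not tested. Hspb7, known from heart and muscle, had the widest range, 0.34. Single arrays of Hspb7 read -0.059, 0.15, -0.24 and 0.29 for W1, then 0.098, 0.15, 0.26 and 0.40 for W2, -0.34, 0.21, -0.14 and -0.18 for W3, and -0.12, 0.20, -0.033 and 0.10 for W4. W2 lay on side A on all 4 arrays, and the arrays of the other mice lay on both sides of W5. The fitted W2 value was 0.23 ± 0.080 (5-kidney limma adjusted p = 0.325). Hspb3, Hspb2 and Hspb6, also muscle forms, each had another kidney farthest out, with 0.28 in W4 for Hspb3, and -0.24 for Hspb2 and -0.20 for Hspb6 in W1. The muscle markers tested had 0 of 4 genes called in limma's 5-kidney test, with 2 at an unadjusted p under 0.05 and ranges of 0.23 to 0.41, and their part in these values was not tested. Hspb9, a testis form, lay at -0.33 ± 0.089 in W2 (limma adjusted p for W2 against W5 = 0.0643). Hspb8, which pairs with Bag3 in clearing damaged proteins, had a range of 0.15.

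The disulphide isomerases and lectin chaperones of the ER had the narrowest median range of the families, 0.15 over all 5 genes. Pdia6, a disulphide isomerase, was the widest at 0.17. Array by array, Pdia6 read 0.092, -0.56, 0.28 and -0.13 for W1, then 0.057, -0.14, 0.32 and -0.30 for W2, 0.032, -0.048, 0.077 and 0.13 for W3, and 0.21, -0.17, 0.10 and 0.23 for W4. The arrays of every mouse lay on both sides of W5, and W1 alone spanned from -0.56 to 0.28. The fitted values reached -0.079 ± 0.097 in W1 and 0.093 in W4 (5-kidney limma adjusted p = 0.876). Pdia4, Calr and Canx had ranges of 0.16, 0.15 and 0.14. Pdia2, known from pancreas, had a range of 0.12 but a residual SD of 0.48 between arrays, so its narrow range comes with a wide error. A second probe of Canx had W1 at 0.22 and a range of 0.31.

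Taken by place in the cell, the 11 members with their chaperone or enzyme domain inside the ER lay between ranges of 0.12 and 0.22, with a median of 0.18. They are the 5 above with Hspa5, Hsp90b1 and the J proteins Dnajb11, Dnajc1, Dnajc3 and Dnajc10, and on the probes used limma held 0 of the 11 at an unadjusted p under 0.05. The 6 with an ER stress element had a median range of 0.17 and a widest of 0.22, that of Dnajc3, which curbs the arm of the unfolded protein response that slows translation. Dnajc3 lay at -0.17 ± 0.068 in W3, and its second probe, which did pass that unadjusted limit in limma, put W1 at 0.23 with a range of 0.38 (adjusted p = 0.274). The 7 members counted here as mitochondrial were Hspa9, Hspe1, Dnaja3, Dnajc11, Dnajc15, Dnajc19 and Dnajc30. Their median range was 0.23. These groups were formed with the values known and describe the members only.

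Bag proteins bind Hsp70 and make it let go of its client. Bag2, which also restrains the ubiquitin ligase of the Hsp70 cycle, had the widest range of all members. The 16 arrays of Bag2 read 0.054, 0.053, 0.028 and -0.34 for W1, then 0.034, -0.18, 0.16 and -0.27 for W2, -0.16, -0.31, 0.17 and -0.55 for W3, and -0.15, -0.52, -1.25 and -0.25 for W4. W4 lay on side B on all 4 arrays, but 3 of them read between -0.52 and -0.15, and array W4.3 read -1.25. W1, W2 and W3 also had arrays on side B, so W4 without W4.3 overlapped them. W4 was fitted at -0.54 ± 0.14, with limma adjusted p of 0.0572 for W4 against W5 and 0.149 among the 5 kidneys. Array W1.4, at -0.34, lay apart from the other arrays of W1, which read 0.0285 to 0.054. Bag1, an anti-apoptotic exchange factor, lay at -0.15 in W2 with a range of 0.20. Bag6, which sorts membrane proteins that missed their target, had a range of 0.29 on one probe and 0.10 on the other.

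**Figure D3:**
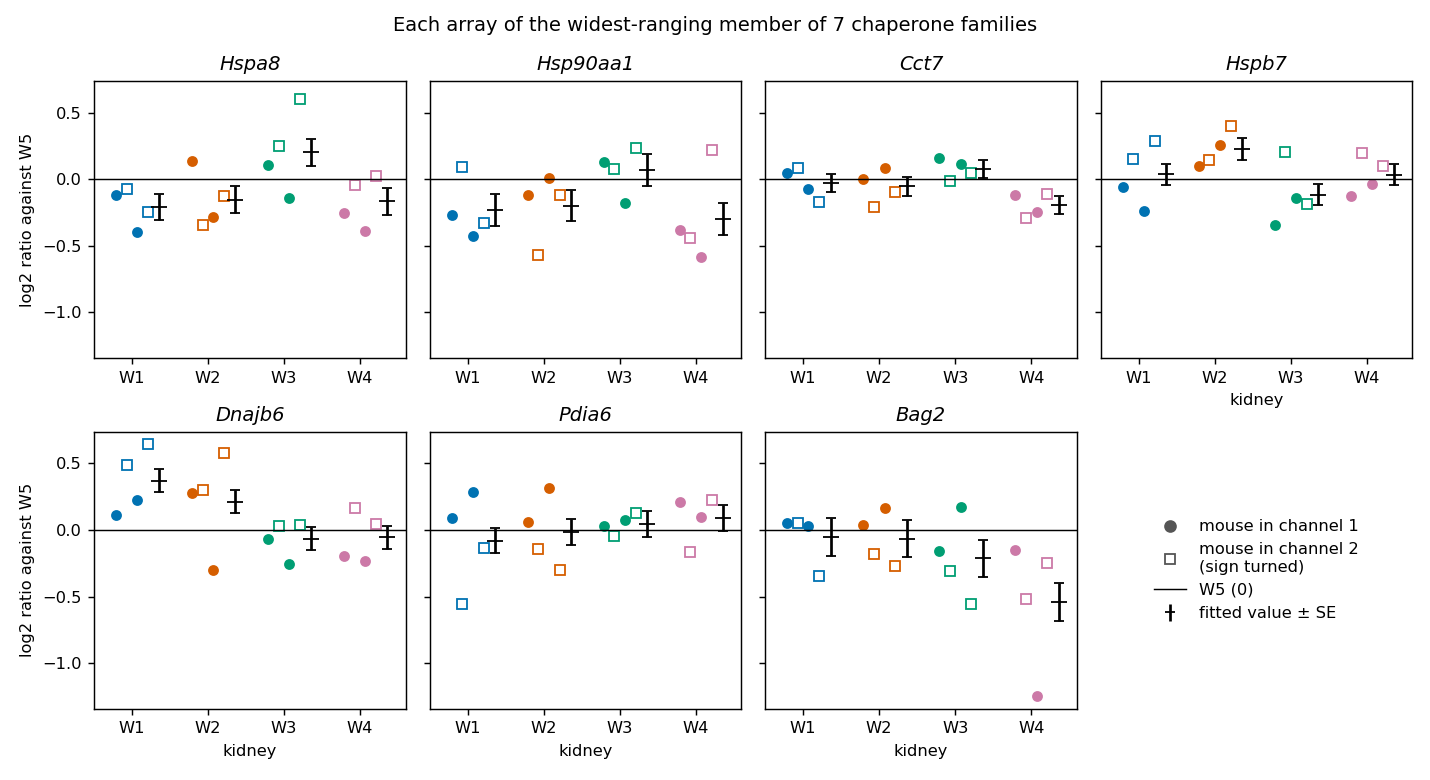
Log2 ratio to W5 (y axis) on each array of W1, W2, W3 and W4 for the widest member of each of 7 families, with the fitted value and its SE beside the points, circles for arrays with the mouse in channel 1 and open squares for turned arrays. The Dnajb6 arrays of W1 all lie above 0, and array W4.3 of Bag2 at -1.25 lies far below the other 3 arrays of W4.

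Each kidney was next set against W5 alone. Limma called 0 of 62 members in W1, against 0.937% of named genes, 0 in W2 against 2.49%, 0 in W3 against 0.575%, and 0 in W4 against 2.32%. At an unadjusted p under 0.05 it held 4, 7, 2 and 7 members for W1 to W4 (6.45%, 11.3%, 3.23% and 11.3%), against 7.97%, 15.5%, 10.5% and 16.1% of named genes. The lowest adjusted p were 0.0590 for Dnajb6 in W1, 0.0643 for Hspb9 in W2, 0.344 for Dnajc3 in W3 and 0.0572 for Bag2 in W4. With 1 probe per named gene, limma called Dnajb6 in W1 (adjusted p = 0.0395), Hspb9 in W2 (0.0486) and Bag2 in W4 (0.0416), and requiring values on all 4 arrays of each mouse called the same 3. These comparisons share the W5 extract on all 16 arrays.

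The test among W1 to W4, in which W5 cancels, also called 0 of 62 members, against 0.824% of named genes. At an unadjusted p under 0.05 it held 3 members (4.84%), against 11.4% of named genes, and the lowest adjusted p in limma was 0.208, for Dnajb6. Of the 6 pairs, 0 members were called in any by limma. The shares of named genes called were 0.275% for W1 against W2, 0.212% for W1 against W3, 0.237% for W1 against W4, 0.337% for W2 against W3, 0.275% for W2 against W4 and 0.287% for W3 against W4. Unadjusted, 2, 3, 4, 5, 7 and 4 members passed 0.05 in these pairs, in the same order, against 9.37%, 7.63%, 7.77%, 9.28%, 10.9% and 9.49% of named genes. As shares of the 62 members these are 3.23% to 11.3%, and the alternatives tried called none among W1 to W4.

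Another test asked whether W5 stood apart from its littermates, using the 4 mouse means as n = 4 values against 0, so that W5's own spread is left out. Limma called 0 of 62 members, against 0.412% of named genes, and no alternative called a member. At an unadjusted p under 0.05 there were 6 members (9.68%), against 13.1% of named genes. Dnajc28, a J protein of little known duty, had the lowest adjusted p, 0.117. It lay on side A in all 4 mice, at 0.20, 0.16, 0.22 and 0.23 in W1 to W4, but with an SE of 0.15 or more over the arrays of each mouse. Hspa4l, Bag2, Hsp90aa1, Hspbp1 and Dnajc27 were the others.

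The stress-inducible genes left out of the members were called in the 5-kidney test, with W5 as the outermost kidney of each. Hspa1a, which encodes inducible Hsp70, was fitted on side B at -1.08, -0.73, -0.73 and -1.38 in W1 to W4, and Dnajb1, its J protein partner, at -0.46, -0.32, -0.36 and -0.66. Hspb1 and Bag3 were on that side too in each mouse, and limma called all 4 genes in the 5-kidney test but 0 of the 4 among W1 to W4, where 1 had an unadjusted p under 0.05. In the test of W5 against its littermates, limma called 2 of the 4, Hspa1a and Dnajb1 (adjusted p = 0.00245 and 0.0212). Hspb1 and Bag3 did not pass there (limma adjusted p = 0.0516 for each). Hspa8 and Hsp90aa1, the cytosolic Hsp70 and Hsp90 among the members, lay on side B in W1, W2 and W4. In W3, where Hspa1a lay at -0.73, both lay on side A, with Hsp90aa1 at 0.069 ± 0.12, within its SE of W5. Dnaja4, another member that stress also raises, lay at 0.014, -0.26, -0.028 and -0.24 in W1 to W4. The difference between the stress-inducible genes and the members was not tested.

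**Figure D4:**
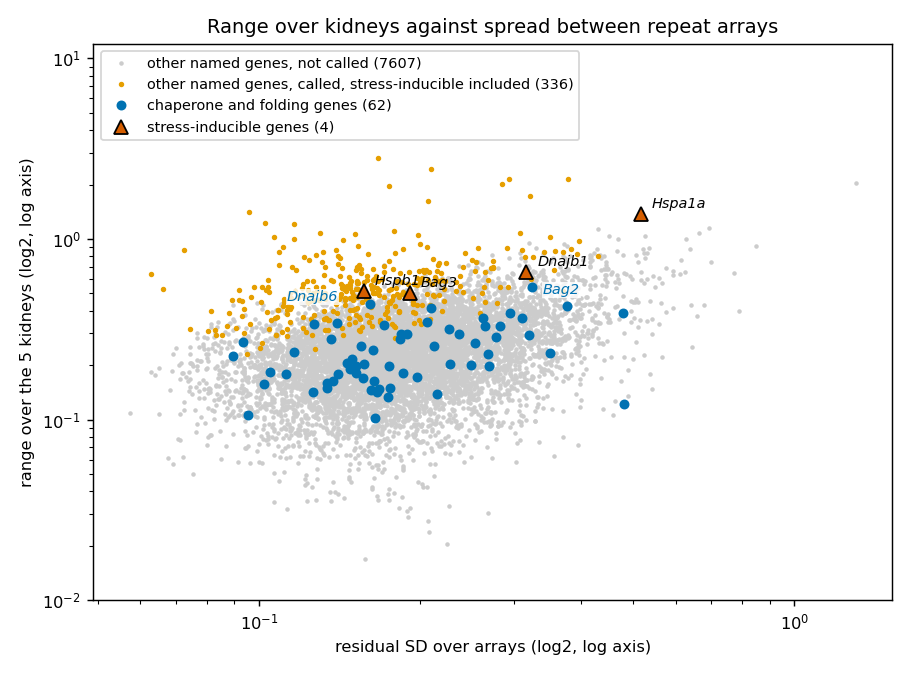
Range over the 5 kidneys (y axis, log2 ratio on a log axis) against residual SD between arrays (x axis, log axis) for the 62 members, the 4 stress-inducible genes and the other named genes, with called genes in orange. The members lie among the grey uncalled genes, with Bag2 at a range of 0.54 and Dnajb6 at 0.43, while Hspa1a lies at 1.38.

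Some genes with ranges up to that of the widest member were called on these arrays, but none at the ranges of most members. Of the 336 named genes called in the 5-kidney test, 192 had a range up to that of Bag2, out of 7630 genes tested with such ranges. The smallest range called was 0.23, and the median of the called genes was 0.52. The median range of members, 0.22, lay below that smallest range, so for most members the test called no gene of like range. In 37 of 62 members (59.7%) the estimated variance between kidneys was above 0, against 55.6% of the other named genes.

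Partners of the members in the same pathways were counted from 3 lists, and 4.2% of all named genes were called in limma's 5-kidney test. Of the ER folding and unfolded protein response genes, limma called 1 of 18 tested in the 5-kidney test, and this was Manf, a secreted ER stress protein, at -0.38 in W2 and within 0.094 of W5 in the others (adjusted p = 0.0434). Of the cytosolic co-chaperones and prefoldin genes, 3 of 18 were called. They were Fkbp5, which slows the glucocorticoid receptor on Hsp90, with a range of 0.59, Ptges3, the Hsp90 helper p23, with 0.58, and Fkbp4, which speeds that receptor, with 0.35 (limma adjusted p = 0.00188, 0.0290 and 0.0132). All 3 work with Hsp90, as do Stip1 and Cdc37 of that list, which were not called (limma adjusted p = 0.179 and 0.892). For W1 to W4, Fkbp5 lay at -0.31, -0.39, 0.21 and -0.12, Fkbp4 at -0.31, -0.089, 0.042 and -0.30, and Ptges3 at 0.061, -0.48, -0.17 and 0.10. Fkbp4 and Fkbp5 were thus on side B in W1, W2 and W4 and on side A in W3. Hspa8 and Hsp90aa1 had the same sides, and Ptges3 did not. Among other uncalled genes, Stip1, Calr, Cct7, Hsp90b1, Hspb9, Dnajb2, Dnajc11, Hspa12b, Erp29, Ganab and Clpb had them too. So did the uncalled cell type markers Umod, Slc22a6 and Lyz2, so these sides were not particular to genes that work with Hsp90. In W3, Fkbp4 at 0.042 ± 0.071 and Hsp90aa1 at 0.069 ± 0.12 lay within their SE of W5. How many of all named genes share these sides was not counted. Of the mitochondrial chaperones and proteases, limma called 0 of 15, with 0 at an unadjusted p under 0.05. Among W1 to W4 only Fkbp5 of these lists was called (adjusted p = 0.0170).

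Other features of the arrays moved with some genes. The gene-specific dye term was called by limma in 10 of 62 members, against 13.7% of named genes, with Canx at -0.25 the strongest (adjusted p = 0.00775). Cell type markers differed among the kidneys, with 5 of 6 adipocyte, 6 of 9 endothelial and stromal, 5 of 9 proximal tubule, 3 of 6 distal nephron, 2 of 2 glomerular and 2 of 10 leukocyte markers called in limma's 5-kidney test, and 0 of 2 red cell markers, with 0 at an unadjusted p under 0.05. The endothelial and stromal markers had medians of 0.29 and 0.26 in W2 and W4, and of 0.059 and 0.038 in the other mice, W1 and W3. Hspa12b lay at -0.079 in W2 and -0.046 in W4. The part of these markers in the values of members was not tested.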

How the data were processed

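RNA of 5 right kidneys was compared on 16 arrays of 2 colours. Per the labels, slides were read with GenePix Pro 3.0, and background-subtracted mean intensities were scaled so that the median ratio was 1. What was deposited is a log2 ratio of the channels per probe. Its base was settled from the values: 1.48% to 4.9% of an array's values matched the log2 of small whole-number ratios to 2e-06, against at most 0.0285% under natural logs. Which channel is the numerator, and why cells are empty, is not given in the sources used here. Signs were turned on the 8 arrays with W5 in channel 1. Opposite orientations of a mouse, centred per probe, correlated at -0.0915, -0.0513, -0.0488 and -0.0515 across probes in W1 to W4, and arrays of different mice in 1 orientation at 0.0256 to 0.418.

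Limma 3.58.1 in R 4.3.3 (lmFit, eBayes) fitted 4 mouse coefficients and a gene-specific dye term to 15715 probes with values on at least 3 of 4 arrays per mouse. For W5 against its littermates, the 4 plain mouse means were tested against 0. Benjamini-Hochberg adjustment ran over all probes tested, with calls at an adjusted p under 0.05. The scripts were tested on simulated data. Of the probes, 11723 had 1 symbol, 806 had several and 7676 are unnamed here; 11590 were matched to a gene table of GRCm38.p6, and 0 symbols changed. The probe with values on most arrays, then the first identifier, stood for a gene. Array values are given for the widest member of each family, since no member was called. The members and lists were chosen with earlier results of these data known. Alternatives changed the sign turning, dye term, weights, scaling, filter, eBayes and blocks, and left out each array and mouse. The number of arrays limits the precision.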

Additional observations from a re-analysis of the deposited data

Results flagged for a closer look

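A gap between 1 value and the others of its group was measured against the range of the 4 values. It was looked for in 35 groups of 4 from the widest member of each of 7 families. Chance gives about 1 in 20 in groups not picked by their values. These members were picked for a wide range over the kidneys, so that rate need not hold for their mouse values. Such a gap was found in 2 groups. Array W1.4 of Bag2 read -0.344, whereas the other 3 arrays of W1 read 0.0285 to 0.054. For Hspa8, W3 was fitted at 0.206, and the other mice at -0.208 to -0.153.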

How the results depend on the processing

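The count of members called in the 5-kidney test moved under 4 of 10 alternative settings and 2 of 20 that left out 1 array or mouse. Array quality weights called 2 in the 5-kidney test (Dnajb6 and Hspa4l, limma adjusted p = 0.0123 and 0.0483) and 1 in W1 against W5. A common median absolute deviation called 1 in the 5-kidney test and 1 in W1. Requiring values on all 4 arrays, and testing 1 probe per named gene, each called 1 in the 5-kidney test, 1 in W1, 1 in W2 and 1 in W4. Both of these settings adjust over fewer probes. The cause of the calls was not tested. Leaving out 1 array or mouse gave 0 to 1 members in the 5-kidney test, in W1, in W2 and in W4 against W5, and 0 to 0 among W1 to W4, in W3 and in the W5 test. The single members were Dnajb6 without W2.1, W2.3 or mouse W2, Dnaja4 without W4.3 and Bag2 without W4.4. The members' median range ran between 0.1747, without mouse W4, and 0.2521 (0.2204 with all arrays), with a jackknife SE of 0.0343 over arrays. Members within 1.5-fold of W5 numbered 52 to 62 over all settings. Without W4.3 and W4.4, the arrays with the fewest values, a choice made after seeing the data, 0 members were called in each test and the range of Bag2 was 0.3352. The array number as a replicate block called 0 members, with a lowest 5-kidney adjusted p of 0.0608 in limma, and 591 of all probes. Residuals of same-numbered arrays correlated at -0.253 to 0.135. Whether the numbers mark a shared day or slide is not given in the labels and was not tested. Over all probes the 5-kidney test called 629, but 23 with signs not turned, 403 without the dye term, 383 among 1 probe per named gene and 378 and 335 without mouse W1 and W2. The W5 test called 55, but 3 with a spread of W5 added and 470 with the mouse as a random block. Depth is unknown, since the values are ratios without intensities.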
